A study of Mus musculus with 12 samples.

Results

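Mitochondrial fatty acid oxidation was followed through 35 genes in mouse embryonic fibroblasts that lacked the triacylglycerol-synthesising enzymes DGAT1 and DGAT2 (D1D2KO) and in wild-type (WT) fibroblasts, before and after conversion to adipocytes. The genes were taken from a list of symbols drawn up with earlier results of these data known. No measured value entered the rule except in the choice of probe set. All 35 were measured on the array among 19938 genes in all. Each gene is represented by 1 probe set annotated to that gene alone, and where several were available the brightest on average was taken. The 12 samples formed 4 groups of 3, namely D1D2KO differentiated, D1D2KO undifferentiated, WT differentiated and WT undifferentiated. All cells came from C57BL6 embryos at embryonic day 14 and grew in DMEM with 10% serum. The differentiated groups alone received, from 2 days after confluency, 1 µM dexamethasone, 500 µM isobutylmethylxanthine, 5 µg/ml insulin and 15 µM troglitazone for 2 to 3 days. They then had insulin with troglitazone for 2 days and plain medium until harvest. Troglitazone is an agonist of the nuclear receptor PPARγ, so that the effect of the agents on a gene and the effect of becoming an adipocyte cannot be told apart. The design text calls the samples biological replicates but ties none to an embryo, and the time of harvest and the number of cell lines per genotype are not stated. If samples of 1 group shared an embryo or a culture, the p-values measure only the spread between those samples.

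In mitochondrial β-oxidation a fatty acyl group crosses the mitochondrial membranes as a carnitine ester and is then shortened in repeated cycles of dehydrogenation, hydration, a further dehydrogenation and thiolytic cleavage. Chain-length specific acyl-CoA dehydrogenases hand their electrons to the electron transfer flavoprotein and its ubiquinone oxidoreductase. Fat cells mainly store fatty acids, yet their mitochondria increase during adipogenesis, and many genes of this pathway are known targets of PPAR nuclear receptors. The list reaches a little beyond the pathway. Slc22a5 imports carnitine at the plasma membrane, Cpt1c lies in the endoplasmic reticulum, Echdc1 is cytosolic, Acadsb, Acad8 and Ivd act on amino acid breakdown products, Ppara is a nuclear receptor, and Pdk4 inhibits pyruvate dehydrogenase.

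Values are log2 array signals, compared only within a probe set, and a difference of 1 is a 2-fold change. The D1D2KO cells had less signal for both targeted genes, whether or not they had been differentiated. Dgat1 was at 38.2% of WT in differentiated and at 39.4% in undifferentiated cells, and Dgat2 was at 31.4% and 72.0%. Both signals still rose with differentiation in D1D2KO, Dgat1 5.31-fold and Dgat2 8.38-fold, against 5.48-fold and 19.2-fold in WT. The mean signal of 7 adipocyte markers was 10.7 to 11.0 in differentiated and 5.38 to 5.50 in undifferentiated D1D2KO samples, and 10.3 to 10.5 in differentiated and 5.63 to 5.71 in undifferentiated WT samples. Fibroblast markers remained high after differentiation, where the means of 8 genes were 10.9 to 11.0 in D1D2KO samples, as against 11.3 to 11.4 in WT samples. The mean of 7 macrophage markers was 8.14 to 8.23 in differentiated and 9.33 to 9.36 in undifferentiated D1D2KO samples, and 8.24 to 8.43 and 9.31 to 9.37 in the matching WT samples, although the cells are labelled fibroblasts and adipocytes. Smooth muscle markers were lower in D1D2KO cells in both states, with 5 of 5 called down. A gene was called where limma gave a Benjamini-Hochberg adjusted p under 0.05 over all 19938 genes.

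Nearly the whole pathway was higher after conversion to adipocytes in either genotype. Of 35 genes, 32 rose and 2 fell in D1D2KO cells, and 32 rose and 2 fell in WT cells. Among all genes 15.4% rose and 21.2% fell with differentiation in D1D2KO, and 14.7% rose and 19.4% fell in WT. The median change of the 35 genes was 1.47 in D1D2KO, against 0.0062 over all genes, and 1.11 in WT, against 0.015 over all genes. Rises of at least 2-fold were called for 26 of the 35 genes in D1D2KO, where 3.56% of all genes did so, and for 19 of the 35 in WT, where 2.6% did. The same 32 genes rose in both genotypes, the same 2 fell (Cpt1a and Cpt1c), and Slc22a5 passed the test in neither. Because these are cultures of mixed cells, a larger share of adipocytes and more RNA per adipocyte cannot be told apart. Adipocyte markers rose beside the oxidation genes (7 of 7 in each genotype, by medians of 5.11 in D1D2KO and 4.58 in WT), fibroblast markers fell (7 of 8 in D1D2KO and 6 of 8 in WT) and macrophage markers fell (6 of 7 in each), and the part of these in the result was not tested.

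**Figure D1:**
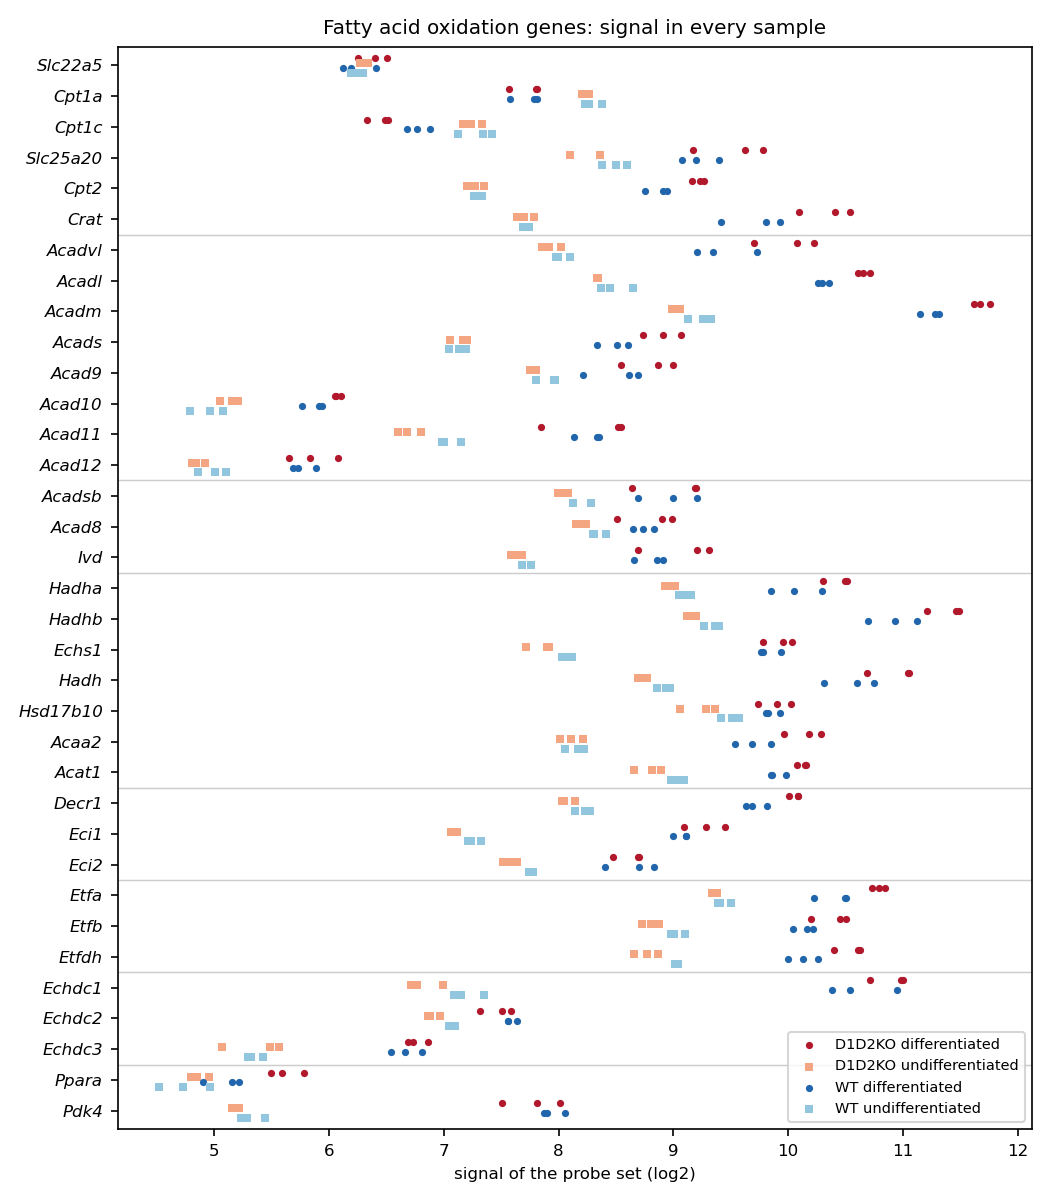
Signal (log2, horizontal axis) of each of the 35 genes in each of the 12 samples, grouped by role, with circles for differentiated and squares for undifferentiated samples of D1D2KO (red) and WT (blue). For most genes the circles lie to the right of the squares with no overlap, while Cpt1a and Cpt1c lie the other way and Slc22a5 does not separate.

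The genes of the carnitine shuttle split, with Cpt1a and Cpt1c going down while the carrier, Cpt2 and Crat went up. Cpt1b, a further outer-membrane isoform, was not analysed here. Cpt1a, the outer-membrane acyltransferase that commits long chains to oxidation, had log2 signals of 7.81, 7.81 and 7.57 in differentiated D1D2KO samples, against 8.26, 8.20 and 8.22 in undifferentiated D1D2KO samples. Its WT signals were 7.79, 7.81 and 7.58 when differentiated, against 8.38, 8.27 and 8.23 when undifferentiated. Every differentiated sample thus lay below every undifferentiated one, and the genotypes overlapped in each state. Cpt1a fell to 70.7% of the undifferentiated level in D1D2KO (log2 change -0.50 ± 0.09, SE, adjusted p = 0.000238) and to 67.6% in WT (-0.57 ± 0.09, adjusted p = 8.99e-05).

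Cpt1c, a relative best known from neurons, had signals of 6.52, 6.49 and 6.33 in differentiated D1D2KO samples, against 7.33, 7.17 and 7.24 in undifferentiated ones. WT cells gave 6.88, 6.68 and 6.77 after differentiation, against 7.34, 7.42 and 7.13 before it. All 3 differentiated D1D2KO samples were the lowest of the 12. The gene fell by 0.80 on the log2 scale in D1D2KO and by 0.52 in WT, and in differentiated cells it was lower in D1D2KO than in WT (-0.33 ± 0.09, adjusted p = 0.0291). That genotype call was lost without differentiated replicates 2 or 3 of D1D2KO or 1 or 3 of WT (highest adjusted p 0.0967).

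Crat, which moves short acyl groups between CoA and carnitine, had the largest rise in the shuttle. Its signals were 10.54, 10.41 and 10.09 in differentiated D1D2KO samples, against 7.70, 7.64 and 7.79 in undifferentiated ones. In WT they were 9.81, 9.42 and 9.93, against 7.74, 7.69 and 7.69. The undifferentiated genotypes overlapped, whereas each differentiated D1D2KO sample was above each differentiated WT sample. Crat rose 6.24-fold in D1D2KO and 4.03-fold in WT, and it was 1.55-fold higher in D1D2KO than in WT after differentiation (adjusted p = 0.0037). Cpt2, the inner-membrane acyltransferase, rose 3.85-fold in D1D2KO and 2.97-fold in WT, and its differentiated samples were 9.16 to 9.27 in D1D2KO against 8.75 to 8.94 in WT (0.35 ± 0.08, adjusted p = 0.00855). The carnitine-acylcarnitine carrier Slc25a20 rose 2.38-fold and 1.66-fold in the same order, with 9.17 to 9.78 in differentiated D1D2KO overlapping 9.08 to 9.40 in differentiated WT samples. Slc22a5 changed by 0.08 (95% interval -0.12 to 0.27) in D1D2KO and by 0.00 (-0.19 to 0.19) in WT.

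All 8 fatty acyl-CoA dehydrogenases of the list rose in each genotype, led by the medium-chain enzyme. Acadm, whose loss causes the commonest inborn error of this pathway in humans, had signals of 11.68, 11.76 and 11.62 in differentiated D1D2KO samples, against 8.99, 9.06 and 9.02 in undifferentiated ones. WT samples gave 11.28, 11.15 and 11.31 differentiated, against 9.13, 9.33 and 9.26 undifferentiated. The D1D2KO samples were above WT after differentiation and below WT before it, without overlap in either state. Acadm rose 6.33-fold in D1D2KO and 4.02-fold in WT, and was 1.36-fold higher in D1D2KO than in WT after differentiation (adjusted p = 0.00233). Before differentiation the D1D2KO level was 0.22 lower on the log2 scale, which did not pass the test (adjusted p = 0.106).

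The long-chain enzyme Acadl gave 10.65, 10.71 and 10.61 in differentiated D1D2KO samples, against 8.34, 8.35 and 8.33 in undifferentiated ones. Its WT values were 10.26, 10.30 and 10.35, against 8.45, 8.65 and 8.37. The pattern was that of Acadm, with D1D2KO above WT in differentiated and below WT in undifferentiated samples. Acadl rose 4.99-fold in D1D2KO and 3.51-fold in WT, and differed by 0.35 ± 0.08 between differentiated genotypes (adjusted p = 0.0105).

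Acadvl, the very-long-chain enzyme of the inner membrane, varied more among replicates. Differentiated D1D2KO samples had 10.22, 10.07 and 9.70, against 7.91, 8.02 and 7.86 in undifferentiated D1D2KO, and differentiated WT samples had 9.34, 9.21 and 9.73, against 8.0, 7.97 and 8.10 in undifferentiated WT. The lowest differentiated D1D2KO sample fell within the WT range. Its rise was 4.20-fold in D1D2KO and 2.65-fold in WT, and the genotype difference after differentiation was 0.57 ± 0.13 (adjusted p = 0.0102), a call lost without WT differentiated replicate 2 (adjusted p = 0.0594). Acads, the short-chain enzyme, had 9.07, 8.91 and 8.73 in differentiated D1D2KO samples, against 7.17, 7.06 and 7.20 before differentiation, and 8.61, 8.33 and 8.51 in differentiated WT samples, against 7.20, 7.05 and 7.13. The genotypes did not overlap after differentiation and did before it. Acads rose 3.40-fold in D1D2KO and 2.57-fold in WT, and its genotype difference of 0.42 ± 0.10 (adjusted p = 0.0103) also did not pass without WT differentiated replicate 2 (adjusted p = 0.0529).

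Acad9, known also as an assembly factor of respiratory complex I, rose 2.04-fold in D1D2KO and 1.51-fold in WT, and its relatives Acad11, Acad12 and Acad10 rose 3.05-fold, 2.00-fold and 1.91-fold in D1D2KO and 2.35-fold, 1.72-fold and 1.90-fold in WT. None of these 4 passed the genotype test in either state. The mean signals of Acad10 and Acad12, as of Ppara, were below the median probe set of every array. The dehydrogenases of branched-chain amino acid breakdown rose as well. Ivd, which acts in leucine breakdown, rose 2.69-fold in D1D2KO and 2.15-fold in WT, Acadsb of the isoleucine pathway 1.96-fold and 1.72-fold, and Acad8 of the valine pathway 1.52-fold and 1.32-fold. Between the genotypes none of these 3 was called, the differences in differentiated cells lying between 0.04 and 0.26.

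The enzymes that complete the cycle rose in each genotype, 7 of 7. Hadhb and Hadha encode the β and α subunits of the mitochondrial trifunctional protein, which carries out the last 3 reactions on long chains. Hadhb had signals of 11.46, 11.49 and 11.21 in differentiated D1D2KO samples, against 9.18, 9.20 and 9.12 in undifferentiated ones. The WT samples had 10.93, 10.69 and 11.12, against 9.27, 9.40 and 9.36. D1D2KO exceeded WT after differentiation and was below WT before it, with no overlap. Hadhb rose 4.67-fold in D1D2KO and 2.97-fold in WT and was 1.39-fold higher in D1D2KO after differentiation (adjusted p = 0.00769). A further probe set of Hadhb, not used in the fit, gave 11.32, 11.37 and 11.08 in differentiated D1D2KO, 9.02, 9.05 and 8.98 in undifferentiated D1D2KO, 10.76, 10.58 and 11.00 in differentiated WT and 9.10, 9.24 and 9.19 in undifferentiated WT samples.

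Hadha rose 2.78-fold in D1D2KO and 1.95-fold in WT. Its differentiated samples spanned 10.30 to 10.52 in D1D2KO and 9.85 to 10.29 in WT, a difference of 0.37 ± 0.10 (adjusted p = 0.0246) that did not pass without WT differentiated replicate 2 or D1D2KO differentiated replicates 1 or 2. The subunit genes are neighbours on chromosome 5 and are read from opposite strands. Their start windows in RefSeq on GRCm38.p6, 250 bases before to 50 after each start, share 228 bases, at chr5:30155003-30155230, printed on the Hadhb strand because a pair of subunits that rise together is read outward from it.
Hadha and Hadhb: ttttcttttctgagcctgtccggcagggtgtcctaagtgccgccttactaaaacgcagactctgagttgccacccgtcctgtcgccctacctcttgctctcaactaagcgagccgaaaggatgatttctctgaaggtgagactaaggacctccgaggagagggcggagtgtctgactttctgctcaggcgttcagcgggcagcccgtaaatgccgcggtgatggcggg

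Hadh, the hydroxyacyl-CoA dehydrogenase of medium and short chains, had 11.05, 11.05 and 10.69 in differentiated D1D2KO samples, against 8.74, 8.77 and 8.69 in undifferentiated ones, and 10.60, 10.31 and 10.75 in differentiated WT samples, against 8.86, 8.97 and 8.93. The lowest differentiated D1D2KO sample lay below the highest WT one. Hadh rose 4.57-fold in D1D2KO and 3.10-fold in WT. Its genotype difference after differentiation was 0.38 ± 0.11 (adjusted p = 0.0372), and leaving out any of differentiated replicates 1 or 2 of either genotype ended that call (highest adjusted p 0.166).

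Echs1, the short-chain enoyl-CoA hydratase, had 10.04, 9.96 and 9.78 in differentiated D1D2KO samples, against 7.92, 7.90 and 7.72 in undifferentiated ones, and 9.76, 9.78 and 9.93 in differentiated WT samples, against 8.03, 8.12 and 8.09. The genotypes overlapped after differentiation. Echs1 rose 4.23-fold in D1D2KO and 3.35-fold in WT. Acaa2, a mitochondrial thiolase, gave 10.29, 10.18 and 9.96 in differentiated D1D2KO samples, against 8.21, 8.11 and 8.01 in undifferentiated ones. Its WT signals were 9.69, 9.53 and 9.85 when differentiated, against 8.05, 8.22 and 8.17 when undifferentiated. All differentiated D1D2KO samples were above all differentiated WT samples. Acaa2 rose 4.10-fold in D1D2KO and 2.91-fold in WT, with a genotype difference of 0.45 ± 0.10 (adjusted p = 0.00884).

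Acat1, the thiolase of acetoacetyl-CoA, shared with ketone body and isoleucine breakdown, had 10.14, 10.16 and 10.08 in differentiated D1D2KO samples, against 8.89, 8.82 and 8.66 in undifferentiated ones, and 9.86, 9.85 and 9.98 in differentiated WT samples, against 8.98, 9.10 and 9.04. D1D2KO lay above WT in differentiated and below WT in undifferentiated samples, without overlap. Acat1 rose 2.53-fold in D1D2KO and 1.81-fold in WT, and the genotype differences, 0.23 after and -0.25 before differentiation, missed the threshold (adjusted p = 0.0703 and 0.0676). Hsd17b10, a dehydrogenase of isoleucine breakdown that is also a subunit of mitochondrial RNase P, rose 1.57-fold in D1D2KO and 1.28-fold in WT.

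Enzymes that prepare unsaturated chains rose in each genotype, 3 of 3. Decr1, the mitochondrial dienoyl-CoA reductase, had 10.09, 10.08 and 10.01 in differentiated D1D2KO samples, against 8.05, 8.14 and 8.03 in undifferentiated ones. In WT it had 9.68, 9.63 and 9.81, against 8.14, 8.23 and 8.27. The genotypes separated after differentiation and overlapped before it. Decr1 rose 3.96-fold in D1D2KO and 2.82-fold in WT, and was 1.27-fold higher in D1D2KO than in WT after differentiation (adjusted p = 0.009). Eci1, an enoyl-CoA isomerase, had 9.45, 9.28 and 9.09 in differentiated D1D2KO samples, against 7.06, 7.08 and 7.11 in undifferentiated ones, and 9.11, 9.00 and 9.11 in differentiated WT samples, against 7.21, 7.32 and 7.24. It rose 4.56-fold in D1D2KO and 3.53-fold in WT, and the differentiated genotypes overlapped. Eci2, its peroxisomal and mitochondrial relative, rose 2.07-fold and 1.85-fold.

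The electron transfer genes moved together. Etfdh, which passes the electrons to ubiquinone, had 10.61, 10.62 and 10.40 in differentiated D1D2KO samples, against 8.87, 8.77 and 8.65 in undifferentiated ones, and 10.13, 10.00 and 10.26 in differentiated WT samples, against 9.01, 9.02 and 9.04. As for Acadm, the D1D2KO samples were above WT after differentiation and below WT before it, without overlap. Etfdh rose 3.44-fold in D1D2KO and 2.15-fold in WT, with a genotype difference after differentiation of 0.42 ± 0.09 (adjusted p = 0.00753). Etfa, the α subunit of the flavoprotein, rose 2.69-fold and 1.97-fold, with 10.73 to 10.85 in differentiated D1D2KO against 10.22 to 10.51 in differentiated WT samples (0.38 ± 0.09, adjusted p = 0.00942). The β subunit Etfb rose 3.00-fold and 2.16-fold, and its genotype difference of 0.24 did not pass (adjusted p = 0.0832).

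The largest rise of all 35 genes was that of Echdc1, the ethylmalonyl-CoA decarboxylase that removes a faulty carboxylation product. Its signals were 11.00, 10.99 and 10.71 in differentiated D1D2KO samples, against 6.77, 6.99 and 6.71 in undifferentiated ones. WT samples had 10.54, 10.38 and 10.95, against 7.09, 7.35 and 7.15. States were far apart, while the differentiated genotypes overlapped. Echdc1 rose 16.9-fold in D1D2KO and 10.8-fold in WT (log2 changes of 4.08 ± 0.13 and 3.43 ± 0.13). Echdc3 rose 2.62-fold in D1D2KO and 2.50-fold in WT, and Echdc2 rose 1.48-fold and 1.43-fold.

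Of the regulators, Pdk4 rose strongly and by similar estimates in either genotype, and Ppara rose modestly. Pdk4, the kinase that spares glucose by inhibiting pyruvate dehydrogenase, had 8.01, 7.81 and 7.50 in differentiated D1D2KO samples, against 5.15, 5.19 and 5.22 in undifferentiated ones, and 7.90, 7.88 and 8.06 in differentiated WT samples, against 5.28, 5.44 and 5.24. It rose 6.02-fold in D1D2KO and 6.17-fold in WT, and the difference between these changes was -0.04 (95% interval -0.36 to 0.29). Ppara, the receptor that drives this pathway in liver, had 5.78, 5.49 and 5.59 in differentiated D1D2KO samples, against 4.80, 4.85 and 4.95 in undifferentiated ones, and 5.22, 4.90 and 5.15 in differentiated WT samples, against 4.96, 4.52 and 4.73. States separated in D1D2KO and overlapped in WT, and all differentiated D1D2KO samples were above all differentiated WT ones. The rise was 1.69-fold in D1D2KO and 1.28-fold in WT, and the WT call (adjusted p = 0.025) was lost without WT undifferentiated replicates 2 or 3 or WT differentiated replicates 1 or 3 (highest adjusted p 0.146). In differentiated cells Ppara was 1.45-fold higher in D1D2KO than in WT (adjusted p = 0.00717).

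**Figure D2:**
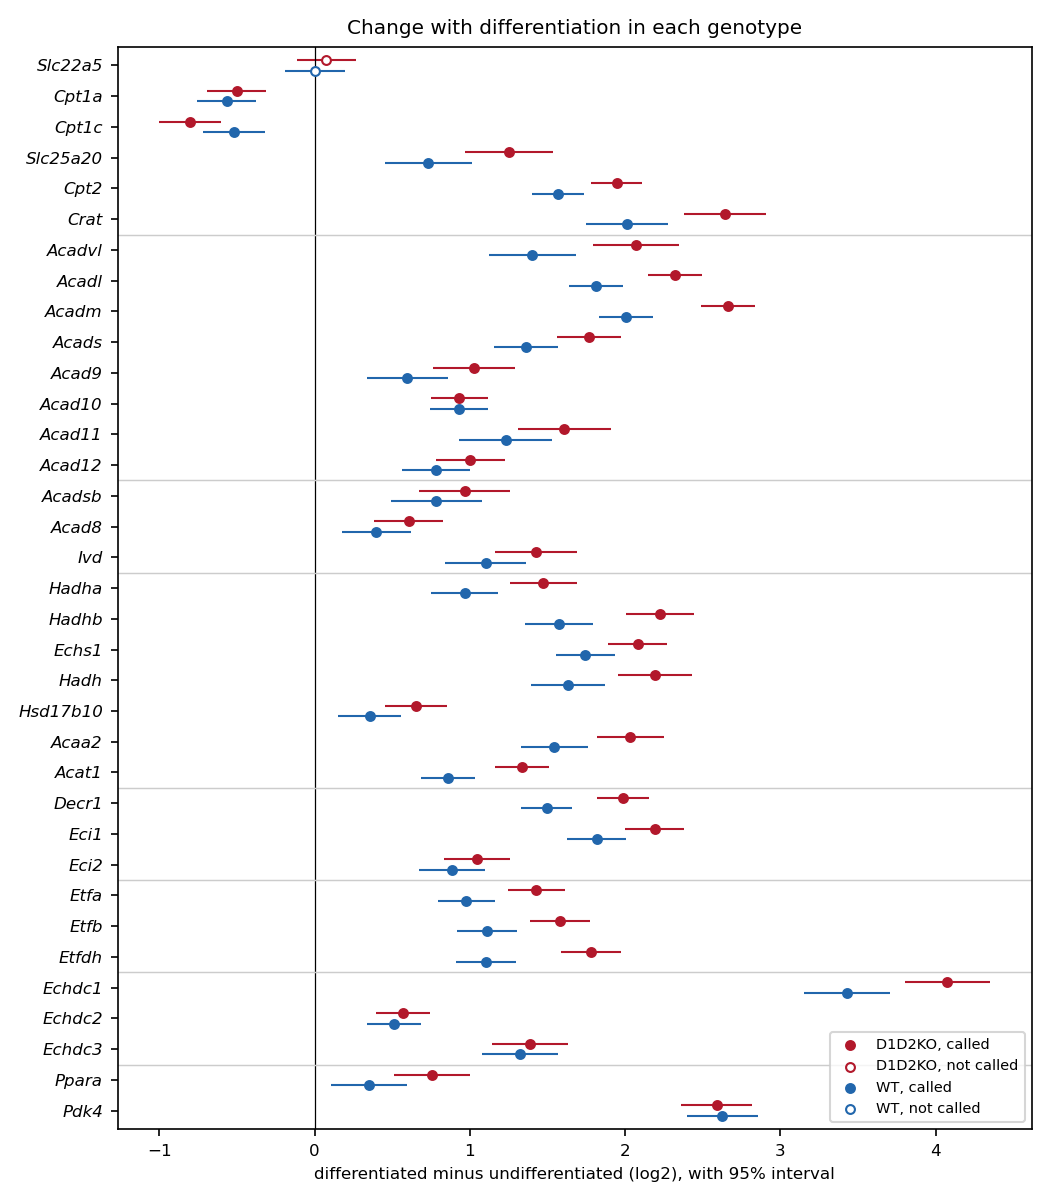
Change with differentiation (differentiated minus undifferentiated, log2, with 95% intervals) of the 35 genes in D1D2KO (red) and WT (blue), filled where called. Of the 32 genes that rose in both genotypes, 31 have the higher estimate in D1D2KO, the exception being Pdk4.

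After differentiation the pathway was higher in D1D2KO than in WT cells by a modest margin. Of the 35 genes, 14 were called up (Crat, Acadvl, Ppara, Hadhb, Acaa2, Acadm, Acads, Etfdh, Etfa, Hadh, Hadha, Acadl, Cpt2 and Decr1) and 1 was called down (Cpt1c), where 6.25% of all genes were called up and 7.42% down. The median difference was 0.26, against 0.029 over all genes, and 31 of 35 estimates were positive, as were 11012 of all 19938. Called rises lay between 1.27-fold for Decr1 and 1.55-fold for Crat. For 14 genes (40.0%) every differentiated D1D2KO sample was above every differentiated WT sample, which held for 16.7% of all genes. Leaving out each sample in turn kept 10 of the 15 calls throughout and gave 11 to 19 called genes. For these fits the share of all genes called was not counted.

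The adipocyte markers moved in the same direction, with 5 of 7 called up in differentiated D1D2KO against WT (1 to 5 with each sample left out), and 4 of 8 fibroblast markers were called down (2 to 3 with each sample left out). Brown adipocyte markers had means over 6 genes of 6.20 to 6.46 in differentiated D1D2KO and 5.74 to 6.17 in differentiated WT samples. In D1D2KO against WT after differentiation 2 of the 6 were called up, Cox8b, a cytochrome oxidase subunit of brown fat, by 1.28 and Ucp1 by 0.32, with a median of 0.28 over the list. With differentiation 4 of the 6 rose in each genotype (Elovl3, Cox8b, Cidea and Ucp1), Elovl3 by 4.0 in D1D2KO and 3.80 in WT, and Zic1 fell in D1D2KO. Ucp1, the uncoupling protein that defines brown fat, was at 4.23 to 4.39 in differentiated D1D2KO and 3.87 to 4.07 in differentiated WT samples, near the lower quartile of the arrays (4.10 to 4.26). Cardiac muscle markers, of another cell type that oxidises fatty acids, had means over 5 genes of 7.02 to 7.08 in differentiated D1D2KO and 6.44 to 6.57 in differentiated WT samples, with 2 of 5 called up (Actc1 by 1.20 and Myh6 by 0.94). In undifferentiated cells 3 of the 5 were called up and 1 down in D1D2KO. Of 6 skeletal muscle markers 2 were called up and 1 down in differentiated and 2 up in undifferentiated D1D2KO cells. Smooth muscle markers had means over 5 genes of 8.34 to 8.45 in differentiated D1D2KO and 10.20 to 10.37 in differentiated WT samples. All 5 were called down, with a median of -2.40, and the median in undifferentiated cells was -1.48. The part of adipocyte share or type, or of other cell types, in the genotype difference was not tested. Differentiated D1D2KO replicate 3 had the lowest signal of its group for 32 of the 35 genes, with a mean over the 35 genes of 8.91, against 9.19 and 9.14 in replicates 1 and 2, and 8.85, 8.75 and 8.94 in the WT samples. Without it 34 genes were called in D1D2KO differentiation and 34 in WT differentiation, and 19 between the differentiated genotypes. WT differentiated replicate 2 had the lowest signal of its group for 25 of the 35 genes. Without that sample Acadvl, Acads, Hadha and Hadh lost the call between the differentiated genotypes. For the fits without either sample the share of all genes called was not counted.

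**Figure D3:**
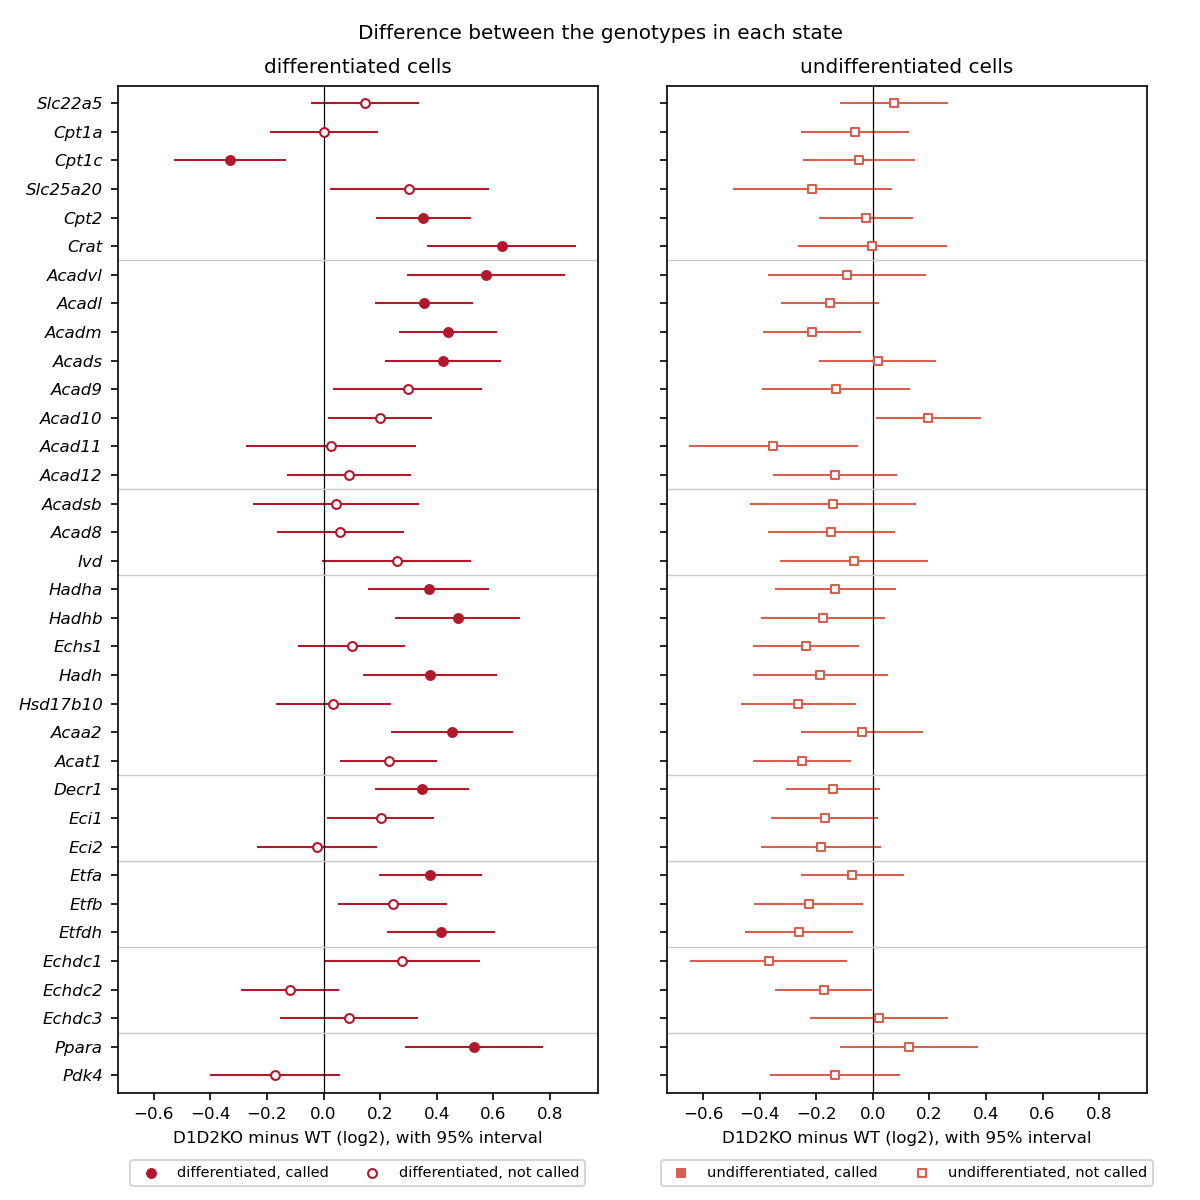
Difference between D1D2KO and WT (log2, with 95% intervals) for the 35 genes in differentiated (left) and undifferentiated cells (right), filled where called. In differentiated cells 14 genes are called to the right of 0 and Cpt1c to the left, and in undifferentiated cells no point is filled while 30 of 35 lie to the left of 0.

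Before differentiation no gene of the 35 passed limma's test between D1D2KO and WT (0 called), where 4.4% of all genes were called up and 3.62% down. With array weights 8 genes were called lower in D1D2KO (Acadm, Acad11, Echs1, Hsd17b10, Acat1, Etfb, Etfdh and Echdc1), and fitting only the groups compared called 3 (Acad11, Etfdh and Echdc1). The share of all genes called in these other fits was not counted, so these counts have no background to be set against. At an unadjusted p under 0.05 there were 10, of which 1 was higher (Acad10) and 9 lower in D1D2KO. Among all 19938 genes 5513 reached that p, 3323 higher and 2190 lower, so that a total of 10 is near the share over all genes. The directions were not alike, since 9 of these 10 were lower, against 2190 of the 5513. The median difference was -0.14, against 0.018 over all genes, and 30 of 35 estimates were negative, as were 9301 of all 19938. In 22 genes (62.9%) every undifferentiated D1D2KO sample was below every undifferentiated WT sample, which held for 19.6% of all genes. Mean signals over the 35 genes were 7.61, 7.60 and 7.55 in undifferentiated D1D2KO and 7.69, 7.75 and 7.69 in undifferentiated WT samples. The largest negative estimates were those of Echdc1 (-0.37 ± 0.13, adjusted p = 0.0874) and Acad11 (-0.35 ± 0.14, adjusted p = 0.123). Echdc1 passed without WT differentiated replicate 3 (adjusted p = 0.0475) and Acad11 without D1D2KO differentiated replicate 3 (adjusted p = 0.0223). Of the 7 adipocyte markers 2 were lower (Fabp4 and Adipoq) and 1 was higher (Lep) in undifferentiated D1D2KO cells.

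**Figure D4:**
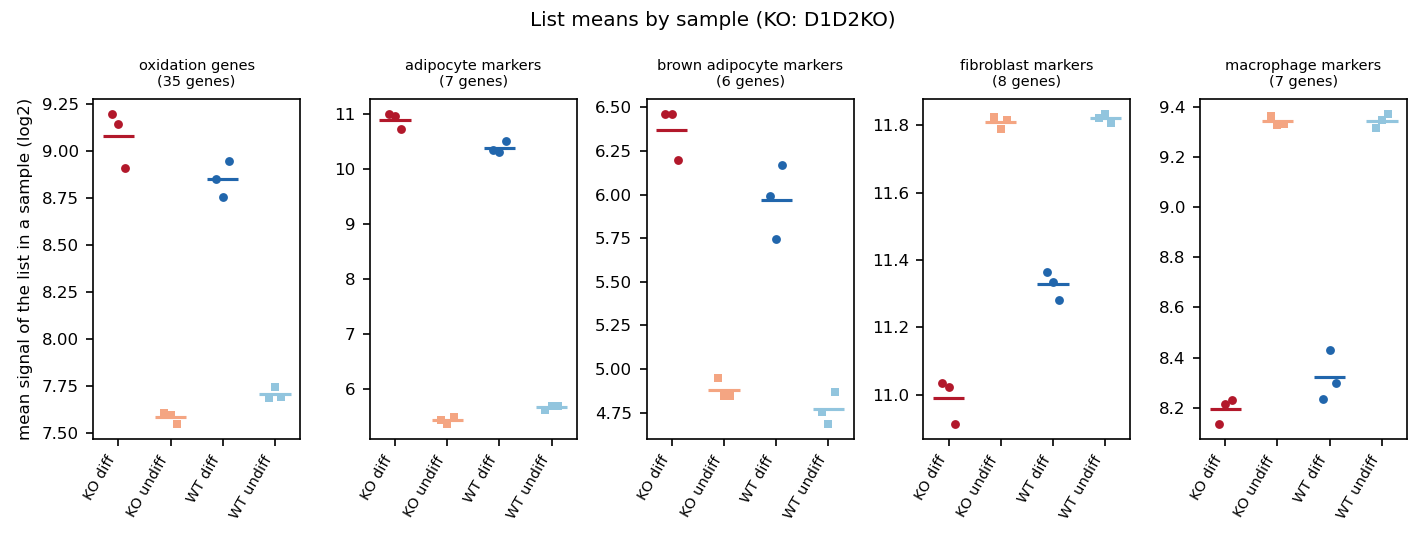
Mean signal (log2) of the 35 oxidation genes and of the adipocyte, brown adipocyte, fibroblast and macrophage marker lists in each sample, with the group mean as a bar and a separate vertical scale for each list. By the group means the oxidation genes and the adipocyte markers are highest in differentiated and lowest in undifferentiated D1D2KO. Single differentiated samples overlap for the oxidation genes, D1D2KO replicate 3 (8.91) lying below WT replicate 3 (8.94). In undifferentiated cells only 3 of the 7 adipocyte markers have a lower estimate in D1D2KO.

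The rise with differentiation was larger in D1D2KO than in WT cells for part of the pathway, as tested by the difference between the 2 changes. Of the 35 genes 6 were called, all with the larger rise in D1D2KO, where 0.747% of all genes were called in that direction and 0.712% in the other. They were Etfdh (0.68 ± 0.13, adjusted p = 0.0125), Acadm (0.66 ± 0.12, adjusted p = 0.00813), Hadhb (0.65 ± 0.15, adjusted p = 0.0357), Acadl (0.51 ± 0.12, adjusted p = 0.039), Decr1 (0.49 ± 0.11, adjusted p = 0.0359) and Acat1 (0.48 ± 0.12, adjusted p = 0.0494). With the replicate number as a block, 3 of the 6 were called (Etfdh, Acadm and Acadl), and Hadhb (adjusted p = 0.0587), Acat1 (0.0685) and Decr1 (0.0537) did not pass. The median over the 35 genes was 0.40, against -0.0094 over all genes, and 33 of 35 estimates were positive, as were 9492 of all 19938. Among the 29 genes not called, the 95% interval lay above 0 for 16, below 0 for 1 (Cpt1c) and across 0 for 12. An interval clear of 0 is an unadjusted p under 0.05, reached by 22 of the 35 genes upward and 1 downward. Among all 19938 genes 1073 reached it upward and 1166 downward. The larger rise was not particular to the 35 genes. In the same test 14 genes of branched-chain amino acid and propionate breakdown had a median of 0.42. All 14 estimates were positive, 11 reached that p upward and 1 was called. For 10 genes of pyruvate dehydrogenase and its kinases the median was 0.40, with 8 estimates positive, 2 negative and 0 called. This contrast and the genotype comparisons share the same samples, and so do not support each other.

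Etfdh and Acadm kept their calls without any 1 sample. Hadhb, Decr1 and Acat1 lost theirs without any sample other than differentiated replicate 3 of D1D2KO or of WT, and Acadl also held without WT undifferentiated replicate 3 (highest adjusted p of the 4 genes 0.148, for Acat1). The count was 15 without D1D2KO differentiated replicate 3, 11 without WT differentiated replicate 3, 3 without WT undifferentiated replicate 3 and 2 without any other sample. How many of all genes were called in each of these fits was not counted, so these counts have no background. In the same contrast 3 of 7 adipocyte markers (Fabp4, Adipoq and Retn) had the larger rise in D1D2KO, by 1.45, 1.38 and 0.62.

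**Figure D5:**
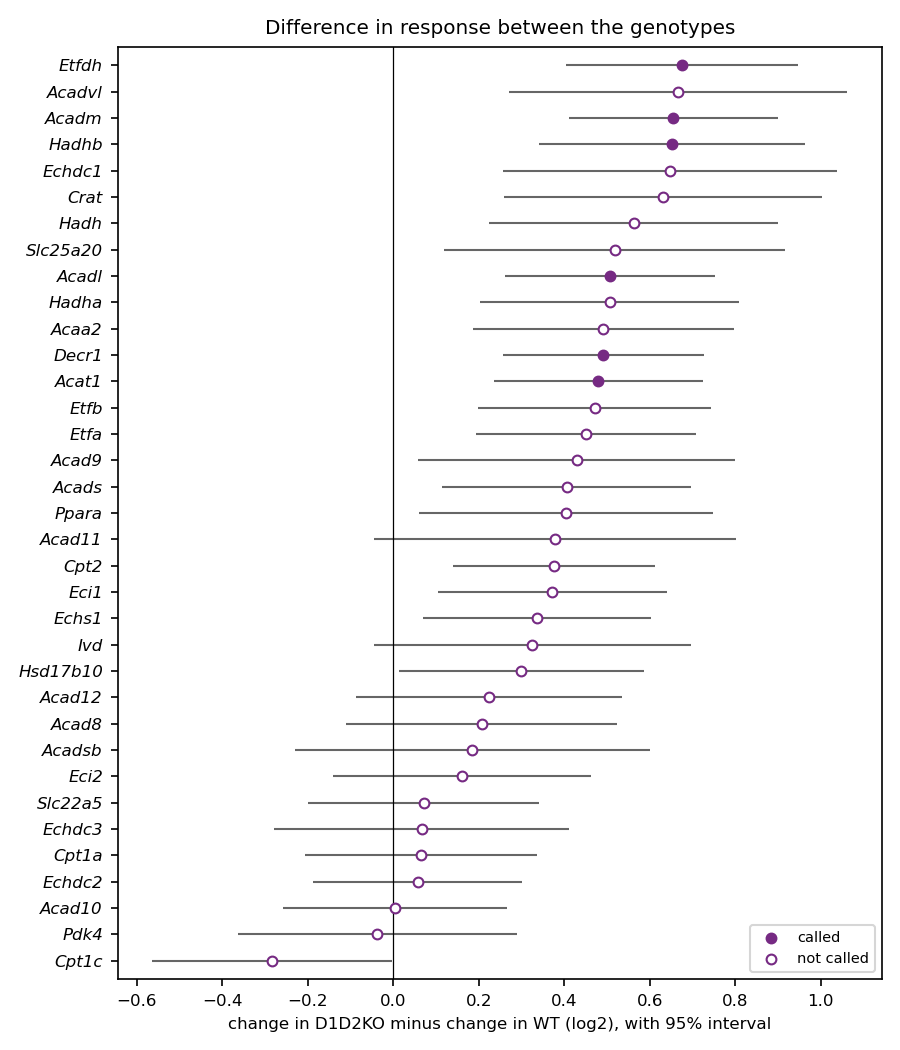
Change with differentiation in D1D2KO minus the change in WT (log2, with 95% intervals) for the 35 genes, ordered by estimate and filled where called. Called genes run from Etfdh at 0.68 to Acat1 at 0.48, and Cpt1c at -0.28 has the lowest estimate.

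Other genes of mitochondrial oxidation and carnitine metabolism, 16 measured, showed more mixed changes. With differentiation 11 rose and 1 fell (Slc25a32, a mitochondrial carrier) in D1D2KO, and 10 rose and 2 fell (Acss1 and Bbox1) in WT. Acacb, the carboxylase whose product malonyl-CoA inhibits entry of fatty acids, rose most, by 2.54 in D1D2KO and 2.47 in WT. Its signals were 8.27, 8.19 and 7.90 in differentiated D1D2KO samples, against 5.55, 5.46 and 5.72 in undifferentiated ones, and 8.15, 7.49 and 8.26 in differentiated WT samples, against 5.67, 5.31 and 5.51. States were well apart and the genotypes overlapped. Etfrf1, a regulator of the electron transfer flavoprotein, rose by 1.74 in D1D2KO and 1.43 in WT, and Mecr, an enoyl-CoA reductase of mitochondrial fatty acid synthesis, by 1.40 and 1.03. In differentiated D1D2KO against WT cells 2 were higher (Bbox1, the last enzyme of carnitine synthesis, by 0.54, and the mitochondrial NAD kinase Nadk2 by 0.29) and 1 was lower (Slc25a32, by -0.34). The call of Nadk2 was lost without differentiated replicate 2 of either genotype, and that of Slc25a32 without WT replicate 2 or D1D2KO replicate 3. Signals of Bbox1, 3.57 to 4.05 in differentiated D1D2KO and 3.17 to 3.25 in differentiated WT samples, were below the lower quartile of every array, where they cannot be told from background. Of the 16 genes 0 passed limma's test of the difference in response, with 7 at an unadjusted p under 0.05. Among all 19938 genes 2239 reached that p.

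Among 17 peroxisomal oxidation genes 13 rose in D1D2KO and 12 in WT, and none fell. The membrane protein Pex11a rose by 3.56 in D1D2KO and 3.42 in WT, the transporter Abcd2 by 3.15 and 2.81, and the bifunctional enzyme Ehhadh by 1.95 and 1.92. Between the differentiated genotypes only Hsd17b4 of the 17 was called (0.40 ± 0.08, adjusted p = 0.00383), and it was also called in the difference in response (0.52 ± 0.11, adjusted p = 0.029), there only with all samples or without differentiated replicate 3 of D1D2KO or WT (highest adjusted p 0.082). In undifferentiated cells Scp2, a thiolase and lipid carrier, was lower in D1D2KO than in WT (-0.43, adjusted p = 0.0193), a call lost without undifferentiated WT replicate 2 or D1D2KO replicates 1 or 3 (highest adjusted p 0.11).

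Of 18 PPAR receptors, partners and targets 14 rose in D1D2KO, and 12 rose and 1 fell (Fabp3) in WT. Pparg, the receptor of adipogenesis and the target of troglitazone, rose by 4.10 in D1D2KO and 3.97 in WT, and its differentiated samples overlapped, at 10.53, 10.65 and 10.48 in D1D2KO and 10.36, 10.39 and 10.62 in WT. In differentiated D1D2KO against WT cells 4 of the 18 were called up, the coactivators Ppargc1b and Ppargc1a, the corepressor Nrip1 (0.27, adjusted p = 0.0333) and the fatty acid transporter Cd36 (0.45, adjusted p = 0.0208). The calls of Nrip1 and Cd36 did not hold without differentiated WT replicates 1 or 2 or D1D2KO replicate 2, nor that of Nrip1 without D1D2KO replicate 1. Ppargc1b had 7.17, 7.04 and 6.96 in differentiated D1D2KO samples, against 6.45, 5.95 and 6.42 in differentiated WT samples (0.78 ± 0.12, adjusted p = 0.000579). Ppargc1a had 6.57, 6.57 and 6.29, against 5.92, 5.57 and 6.09 (0.62 ± 0.13, adjusted p = 0.0056). Neither pair overlapped, and both calls held without any 1 sample. The mean of Ppargc1a over all samples, 5.55, was below the median probe set of every array. The difference in response of Ppargc1b was 0.76 ± 0.17 (adjusted p = 0.0377, and 0.0265 to 0.101 with each sample left out).

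Start windows were searched for the elements that PPAR and estrogen-related receptors bind. RefSeq windows on GRCm38.p6 were found for 30 of the 35 genes, 31 windows in all, and Acad9, Decr1, Acaa2, Acat1 and Crat had none in the table. On either strand, 2 copies of AGGTCA with 1 base between (the PPAR element) were in 0 of the 31 windows and in 0.0396% of all 32851 windows (0.0417% of those of the genes tested). AGGTCA preceded by TCA, bound by estrogen-related receptors, was in 0 of the 31 and in 0.423% of all windows (0.297% of those of the genes tested). The hexamer AGGTCA alone, which also lies inside both elements, was in 6 of the 31 windows (19.4%), in 14.2% of the windows of the genes tested and in 16.3% of all windows. A window without a match says only that these letters are not in these 300 bases. The 6 hexamers are shown in capitals with up to 20 bases on either side, on the strand of the gene, so that TGACCT is the hexamer read on the other strand. They were chosen for display after the search for the longer elements had found none.
Acadm, chr3:153944867-153944893, minus strand: gTGACCTtcgggctccggtgacactgg
Acadvl, chr11:70015490-70015535, minus strand: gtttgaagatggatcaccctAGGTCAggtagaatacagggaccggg
Echs1, chr7:140116479-140116524, minus strand: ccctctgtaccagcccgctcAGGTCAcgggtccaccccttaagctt
Echdc3, chr2:6213155-6213200, minus strand: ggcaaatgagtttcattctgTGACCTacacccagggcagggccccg
Cpt1a, chr19:3323187-3323232, plus strand: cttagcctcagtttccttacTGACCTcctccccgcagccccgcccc
Cpt1c, chr7:44974972-44975017, minus strand: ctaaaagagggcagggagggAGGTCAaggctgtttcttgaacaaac

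Of these 6 genes 4 rose with differentiation, by 2.66 for Acadm, 2.07 for Acadvl, 2.08 for Echs1 and 1.39 for Echdc3 in D1D2KO. Cpt1a and Cpt1c fell. The hexamer's share of 19.4% is near the 14.2% of the genes tested and the 16.3% of all windows. A link between the hexamer and the direction of change was not tested. The 31 windows had a median of 60.7% G and C bases and 17 CpG dinucleotides, against 57.3% and 15 in the windows of the genes tested.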

How the data were processed

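The files held 1 table of log2 signals, deposited by the authors and taken as normalized between arrays, for 35556 probe sets in 12 samples. The log2 base is inferred from the values, which ran from 1.15 to 14.17, since the natural log of the largest 16-bit reading is 11.09. How the scans were summarised and normalized is not given in the sources used here, and no detection calls were used, so that low signals cannot be told from background. Column medians were 5.61 to 5.69 and 0 columns were identical. Gene names came from the annotation of the array platform, which paired 21789 probe sets with 1 gene, 1621 with several and 12146 with none, and those with 1 gene were used, 1 for each of 19938 genes. Samples of a group correlated at 0.993 to 0.997.

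A model of the 4 group means was fitted to all genes and samples with limma 3.58.1 in R 4.3.3 (lmFit, eBayes, two-sided, Benjamini-Hochberg over 19938 genes), after a test on simulated data, with 5 comparisons and no filter on low signals. Intervals are 95% intervals of this fit, errors are standard errors, and the number of arrays limits the precision. The 35 genes and the companion and marker lists were chosen with earlier results of these data known. By the naming rule every one of the 35 is described, and values in every sample are given for the 8 with the largest change in either differentiation comparison, up to 8 called in a genotype comparison or in the difference in response, and those called down. From each companion list, up to 4 called genes with the largest change per comparison and up to 2 uncalled genes with the highest mean were to be named. Acss1, Fabp3 and Pdp1, the genotype value of Hibch, and the marker genes given by name were chosen after their values were seen. Some genes of the companion lists were not analysed here. Start windows are from RefSeq (GRCm38.p6).

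Replicate numbers come from the sample titles. Samples of equal number deviated together in all 3 pairs between differentiated and undifferentiated D1D2KO, with correlations of 0.101 to 0.176. In the other comparisons not every pair did (lowest values -0.0125, -0.0146 and -0.233). Between undifferentiated D1D2KO and WT, however, replicates 2 and 3 gave 0.184 and 0.141. No label ties samples by number, so whether the number pairs samples is not known. The main fit ignores any pairing, and the replicate block is an alternative to it. Alternatives were centring, quantile normalization, a signal filter, other choices of probe set, trended or robust eBayes, array weights, a minimum fold, the replicate block, only the groups compared, and leaving out each sample.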

Additional observations from a re-analysis of the deposited data

Results flagged for a closer look

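The change with differentiation differed between D1D2KO and WT for 6 genes by limma's test of the difference itself. The rise was larger in D1D2KO by 0.68 for Etfdh, 0.66 for Acadm, 0.65 for Hadhb, 0.51 for Acadl, 0.49 for Decr1 and 0.48 for Acat1, on the log2 scale. For Etfdh the changes were 1.78 in D1D2KO and 1.11 in WT, and for Acadm 2.66 and 2.01. Etfdh and Acadm kept their calls without any 1 sample, and the other 4 did not. With the replicate block Etfdh, Acadm and Acadl were called (3 genes), and Hadhb, Acat1 and Decr1 were not. Adipocyte markers differed in the same direction (3 of 7 called), and their part in these differences was not tested.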

How the results depend on the processing

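In the differentiation comparisons the count of called genes stayed within 1.5 times of 34 under every alternative (30 of 31 genes with the filter on signal, and 32 in D1D2KO and 28 in WT with a minimum of 1.5-fold), and no gene reversed in any comparison. Between undifferentiated genotypes 1 gene, Acat1, was called with the filter at the median signal and also with trended eBayes (1 gene), 8 with array weights and 3 with only the groups compared, and 0 to 1 with each sample left out in turn. Between differentiated genotypes only 1 gene, Crat, was called with a minimum of 1.5-fold, against 15 without it. Quantile normalization gave 17 up and 0 down there, Cpt1c no longer passing (adjusted p = 0.0727), and fitting only those groups gave 10. For the difference in response 15 genes were called above the median signal, 12 with trended eBayes, 13 with array weights, 3 with a minimum of 1.5-fold, and 2 to 15 with each sample left out. With the replicate block 3 genes kept that call (Etfdh, Acadm and Acadl), while Hadhb (adjusted p = 0.0587), Acat1 (0.0685) and Decr1 (0.0537) did not. In D1D2KO differentiation, where samples of equal number deviated together, the block left 34 genes called, and it changed no other count. The filter leaves fewer genes and some fits use fewer samples, and the cause of these changes was not tested. The share of all genes called was not counted under any alternative. Low signals limit Acad10, Acad12 and Ppara, and Bbox1, Ucp1, Ppargc1a and Bdh1 among the other genes.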

Other observations

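All 14 genes of branched-chain amino acid and propionate breakdown rose in each genotype, by medians of 1.96 in D1D2KO and 1.69 in WT, led by Aldh6a1 (3.03 and 2.52) and Hibch (2.79 and 2.38), enzymes of valine breakdown. In differentiated D1D2KO against WT cells 5 of the 14 were higher, namely Dbt (0.54), Bcat2 (0.50), Bckdhb (0.44), Hibadh (0.39) and Hibch (0.36), of which Dbt did not pass without WT differentiated replicate 2 or D1D2KO differentiated replicates 1 or 2. Hibadh, a dehydrogenase of valine breakdown, differed in response by 0.65 (adjusted p = 0.00839). Of 10 genes of pyruvate dehydrogenase and its kinases 8 rose in each genotype, and Pdp1, the phosphatase that activates the complex, fell by 0.75 in D1D2KO and by 0.49 in WT. The kinase Pdk3 also fell in D1D2KO, by 0.36. In differentiated D1D2KO against WT cells Dld, a shared subunit of the complex, was higher (0.41, adjusted p = 0.0274) and Pdk3 lower (-0.47, adjusted p = 0.018), and neither passed without WT differentiated replicate 2 or D1D2KO differentiated replicates 1 or 2. The kinase Pdk1 was lower in undifferentiated D1D2KO than in WT samples, with 7.34, 7.55 and 7.22, against 8.10, 8.24 and 8.02 (-0.75 ± 0.11, adjusted p = 0.000514), and rose by 2.14 in D1D2KO and 1.52 in WT.

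Among 4 ketone body genes the genotypes differed most at Oxct1, the enzyme that activates acetoacetate for oxidation. Its signals were 10.26, 10.17 and 9.92 in differentiated D1D2KO samples, against 9.11, 9.01 and 8.88 in undifferentiated ones, and 9.28, 9.18 and 9.48 in differentiated WT samples, against 9.11, 9.17 and 9.20. All differentiated D1D2KO samples were above all others. Oxct1 rose by 1.12 in D1D2KO, while its change of 0.15 in WT did not pass (adjusted p = 0.277), and the difference in response was 0.96 ± 0.14 (adjusted p = 0.00271), a call that held without any 1 sample. Aacs, which activates acetoacetate for lipid synthesis, was lower in differentiated D1D2KO than in WT cells (-0.36, adjusted p = 0.0384, up to 0.148 with each sample left out), and Bdh1 and Bdh2 fell with differentiation, by 0.37 and 0.43 in D1D2KO and by 0.33 and 0.39 in WT.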
